A study of Rattus norvegicus with 6 samples.

Results

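Circular RNAs (circRNAs) are closed RNA molecules detected through reads that span a back-splice, where a downstream position is joined to an upstream one. Described here are the circRNAs of rat dental follicle cells whose host carried only a provisional name. A row of the deposited circRNA table was taken where every host name, split on commas, began with AABR07, with LOC and digits, or with RGD and digits. This gave 104 of 4143 circRNAs, from 54 loci on 15 chromosomes. AABR07 names stood for 14 loci with 24 circRNAs, LOC names for 21 loci with 51, and RGD names for 19 loci with 29. Another 44 rows combined a provisional name with names of another form and were not included, and 3 of them named 2 of the 54 loci.

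Dental follicle cells are connective tissue cells around the developing tooth that can form the bone-building and ligament cells of the tooth's support. The cells came from molar tooth germs of Sprague-Dawley rats 5 to 7 days old and grew for 28 days. Control medium held 5% serum, and induction medium held 1% of an osteogenic induction liquid in addition. The liquid held dexamethasone at 0.010 mmol/L with ascorbic acid at 0.028 mmol/L and β-glycerophosphate at 1.000 mol/L, in the units the labels give. Both groups shared strain, serum and culture time, and the labels name 3 samples in each. The number of rats is 3 in the treatment protocol but 4 in the design text, and it is not stated whether samples of equal number share a rat. The comparison asks which circRNAs differ in level after osteogenic induction.

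The table gave 1 count column per group, so there was no replicate error and no test across samples could be made. The total behind each column was 203283 counts for control and 221596 for induction, of which the listed circRNAs made up 67.8% and 74.3%. Every listed circRNA had at least 1 count in both columns, so circRNAs seen in 1 group only were not analysed here. Of 15 mesenchymal marker genes, 9 hosted circRNAs, with 42882 control and 58025 induction counts. None of 7 epithelial markers did, and single markers of leukocytes (Dock8), endothelium (Flt1) and muscle (Dmd) hosted circRNAs with 10 to 50 counts a column. In RNA of many cells together, fewer cells of a type and less RNA per cell cannot be told apart.

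A ratio below is the induction count over the control count after division by those totals, with a 95% interval from the exact binomial (Clopper-Pearson) bounds of the share of its counts in the induction column. A circRNA is called higher or lower where the ratio was at least 2-fold either way and the interval excluded equal levels. The intervals cover counting error only. Spread between rats and duplicate reads are not in them, so a call compares 2 columns of reads and not the conditions.

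Provisional names are placeholders. A name that begins with AABR07 is taken from the accession of a contig of the rat assembly, and LOC and RGD names are built from the gene identifiers of NCBI and of the Rat Genome Database until a gene receives a symbol. Such a name says nothing about the gene's function, and many are replaced as annotation improves. Most circRNAs of known genes are made from exons by the spliceosome, and their level depends on back-splicing, on transcription of the host and on the slow decay of closed RNA.

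Most of the 54 loci have since received a symbol of another form. Some of these symbols, such as Kiaa0232, C2h5orf34 and 2700097O09Rikl, are themselves systematic names, so a symbol alone does not make a locus characterised. In the RefSeq gene table of assembly GRCr8, 32 loci had a current symbol, 19 through an older symbol and 13 through the gene identifier. Of these, 29 were protein coding. The share differed by form of name: 18 of 19 RGD loci and 13 of 21 LOC loci had a symbol, against 1 of 14 AABR07 loci. All 32 lay on the same chromosome in GRCr8 as in the deposited table, which uses Rnor_6.0. For 31 of them both flanking named hosts were found on that chromosome, and 30 lay between those hosts in GRCr8 as well. The exception was RGD735065, now C20h6orf89. The 22 loci without a current symbol are called by their provisional names below.

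The circRNAs of provisional names had 10027 control and 11328 induction counts, or 7.28% (7.14 to 7.42, exact binomial interval) and 6.88% (6.75 to 7.00) of the listed counts. The ratio of these sums was 1.04 (1.01 to 1.06), beside 1.10 for all other listed circRNAs. LOC102723236, the locus of the 7SL RNA gene Rn7sl1, held 83.5% of the control and 82.2% of the induction counts with 17 of the 104 circRNAs. Without it, 87 circRNAs had 1659 control and 2012 induction counts, a ratio of 1.11 (1.04 to 1.19), and 1.20% and 1.22% of the listed counts. With the totals of the listed counts as the divisor, the ratio of all 104 turned to 0.945.

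Per circRNA, the abundance was close to that of the table. The median was 9 counts in the control and 11.5 in the induction column, against 9 in both for all 4143. In both columns together, 46 of 104 (44.2%) had under 20 counts, against 51.5% of all listed. Those 46 were all outside the 7SL locus. The 7 circRNAs of provisional names among the 100 most counted of the table all came from the 7SL locus, which gave 2 of the 10 most counted. Outside that locus, 17 of 87 circRNAs reached 50 counts in both columns together, and the highest had 339.

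Between the columns, 47 of the 104 circRNAs had a ratio above 1 and 57 below. The median log2 ratio was -0.12 (-0.21 to 0.16), beside -0.05 for all 4143. By the 2-fold rule 16 circRNAs (15.4%) were called, against 18.5% of all 4143. Higher in induction were 10 (9.62%), against a background of 9.22%, and lower were 6 (5.77%), against 9.29%. The share called was thus near the background for higher calls. For lower calls it was below the background by this rule, on only 6 circRNAs, and this difference was not tested. With the totals of the listed counts as the divisor, 9 were called higher and 7 lower, together 15.4% against 19.0% of all listed. With an assumed coefficient of variation of 40% per column, on top of counting error, 5 of the 16 calls held. These were the higher calls of Bltp1, Znf431l4, Hspg2 and AABR07059639.1 and the lower call of Vps35l, and the other 11 calls described below were lost. In the authors' deposited table, 19 of the 104 had an FDR under 0.05, 10 higher and 9 lower, against 16.9% of all listed. Of these 19, 13 were also called by the 2-fold rule.

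**Figure D1:**
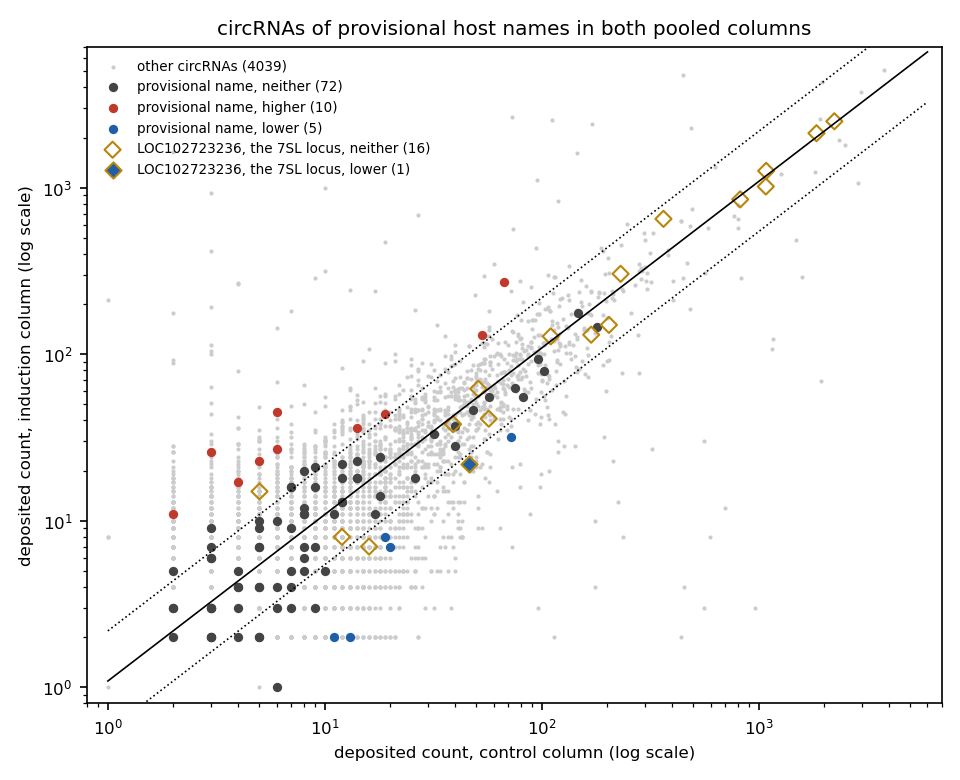
Deposited counts of each circRNA in the control column (x axis) and the induction column (y axis), both on log scales, with equal levels as a solid line and 2-fold differences as dotted lines. Grey points are the 4039 other circRNAs, filled circles the 87 of provisional names outside the 7SL locus (10 called higher in red, 5 lower in blue) and diamonds the 17 of the 7SL locus (1 called lower). The diamonds include the highest counts among provisional names, and the most counted of them lie near the line of equal levels. Their ratios run from 0.401 to 2.75.

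The 7SL RNA is the RNA part of the signal recognition particle, which directs ribosomes making secreted and membrane proteins to the endoplasmic reticulum. RNA polymerase III makes it, it has no introns, and mammalian genomes hold very many partial copies of it. The gene Rn7sl1 is 299 nt long in GRCr8. In the deposited table, however, LOC102723236 reached over 223523 nt of chromosome 6, from 91456952 to 91680474 (Rnor_6.0). The nearest circRNAs of a named host were 4614 kb to the left in Fancm and 253 kb to the right in Sos2.

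All back-splice ends of LOC102723236 lay in 2 short clusters at the ends of that stretch. The left cluster covered 172 nt, from 91456952 to 91457123, and the right one 180 nt, from 91680295 to 91680474. Within the left cluster lay 6 circRNAs with 553 control and 560 induction counts. Within the right lay 6 with 1209 and 1197. The other 5 joined the clusters to each other, with spans of 223286 to 223304 nt, and had 6606 and 7559 counts, or 78.9% and 81.1% of the locus. Spans within a cluster went down to 16 nt. The rows of this locus are called circRNAs because the deposited table lists them so. Whether they come from circular RNA was not tested. The 5 longest and the 5 shortest spans among all 104 circRNAs were both from this locus.

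The clusters were mirror images in the positions of their ends. For 14 of the 17 circRNAs, a partner existed whose start and end were those of the first reflected about a single point, so that the start of one and the end of the other always summed to 183137436. These 14 formed 7 pairs about that same point. Any 2 circRNAs of equal span mirror each other about some point. The other 18 loci with 2 or more circRNAs had only 2 to 6 each and no equal spans, so no pair could arise there. After the reflection the 17 circRNAs reduced to 10 distinct intervals of 16 to 165 nt. The 4 most counted circRNAs of the locus all joined the clusters. After reflection the 5 of this kind were intervals of only 20, 38 or 54 nt.

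The most counted circRNA of provisional names joined 91457048 to 91680351 and had 2233 control and 2505 induction counts, a ratio of 1.03 (0.972 to 1.09). Its mirror partner, from 91457085 to 91680388, had 1847 and 2125, a ratio of 1.06 (0.991 to 1.12). Both columns were near equal for each. A shorter pair joined 91457066 to 91680351, with 1083 control and 1262 induction counts, and 91457085 to 91680370, with 1079 and 1017. Here the ratios were 1.07 (0.985 to 1.16) and 0.865 (0.793 to 0.943), and the intervals did not overlap. In the other 6 pairs they did.

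Partners had like counts in 5 of the 7 pairs, in which the summed counts of both columns were within 1.2 times of each other. The 76 nt pair had 204 control and 150 induction counts on the left and 169 and 131 on the right, lower in induction on both sides by under 2-fold. The 155 nt pair had 46 and 22 on the left and 39 and 38 on the right. The pairs of 45 nt and 29 nt were the unequal ones. The 45 nt circRNA had 231 and 304 counts on the left and 822 and 851 on the right, 3.13-fold more on the right over both columns. The 29 nt circRNA had 51 and 62 on the left and 110 and 128 on the right, 2.11-fold more. The 16 nt pair was sparse, with 5 and 15 against 12 and 8 counts.

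Only 1 of the 17 was called. This was the 155 nt circRNA of the left cluster, from 91456962 to 91457116, 2.28-fold lower in induction (1.34 to 3.98). Among the 3 without a partner, the one from 91457048 to 91680335 had 364 control and 650 induction counts and a ratio of 1.64 (1.44 to 1.87), under the 2-fold limit. The others, of 165 nt and 84 nt, had 16 and 7 and then 57 and 41 counts. Over the locus, 8368 control and 9316 induction counts gave a ratio of 1.02 (0.991 to 1.05). The 5 that joined the clusters had 1.05 (1.02 to 1.09), the left cluster 0.929 (0.825 to 1.05) and the right cluster 0.908 (0.838 to 0.985). Whether the 2 clusters hold near-identical sequence was not tested. Reads from near-identical copies cannot be placed uniquely, and the part of such reads in these counts was not tested. No genome of Rnor_6.0 was used, so the bases at these junctions were not read.

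**Figure D2:**
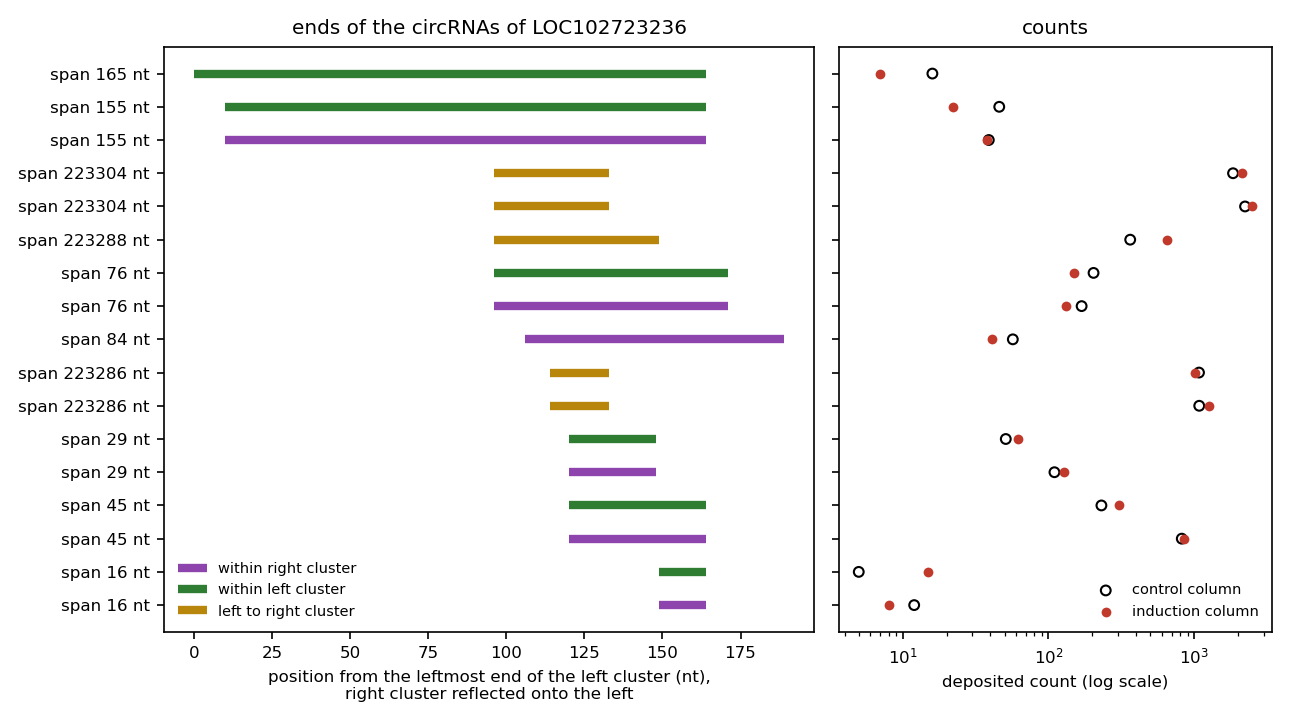
The 17 circRNAs of LOC102723236, with the right cluster of ends reflected onto the left one (left panel, position in nt from the leftmost end) and their counts in the control (open) and induction (filled) columns (right panel, log scale). Bars of equal extent are mirror pairs. The 5 circRNAs that join the clusters (gold) are 20 to 54 nt long after reflection, and the 4 highest counts are among them.

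Among the 24 circRNAs of AABR07 loci, 3 (12.5%) were called, against 18.5% of all listed, and the 3 were higher. The most counted was in AABR07059639.1, on chromosome 4 from 29538802 to 29555430, which had 4 circRNAs and no current symbol. Its circRNA from 29554701 to 29555430 had 67 control and 272 induction counts, 3.72-fold higher (2.84 to 4.94). Its circRNA from 29538802 to 29539050 went the other way, with 180 and 145 counts, 1.35-fold lower (1.08 to 1.70). The ratio intervals of these 2 circRNAs of a single locus did not overlap. The remaining ones had 14 and 18 counts and 9 and 3. Summed over the locus, 270 control and 438 induction counts gave a ratio of 1.49, not past 2-fold.

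In the deposited table AABR07059639.1 lay 1.02 Mb to the right of the nearest circRNA of Ccdc132 (now Vps50) and 1.44 Mb to the left of that of Dync1i1. In GRCr8, 16 coding genes lie between Vps50 and Dync1i1, and Col1a2, the gene of the second chain of type I collagen, is among them. In the deposited coordinates the 8 circRNAs of Col1a2 lay elsewhere, beyond Dync1i1 and 1.99 Mb from AABR07059639.1. A span of 249 nt occurred at both places and was the only span they shared. In AABR07059639.1 it had the 180 and 145 counts above, and in Col1a2, from 31543173 to 31543421, it had 57 and 139, 2.24-fold higher (1.63 to 3.10). All 8 circRNAs of Col1a2 together had 643 and 769 counts, a ratio of 1.10 (0.987 to 1.22). How often 2 hosts of the table share a span was not counted. Whether the 2 places hold related sequence was not tested, and no gene name is given to AABR07059639.1 here.

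**Figure D3:**
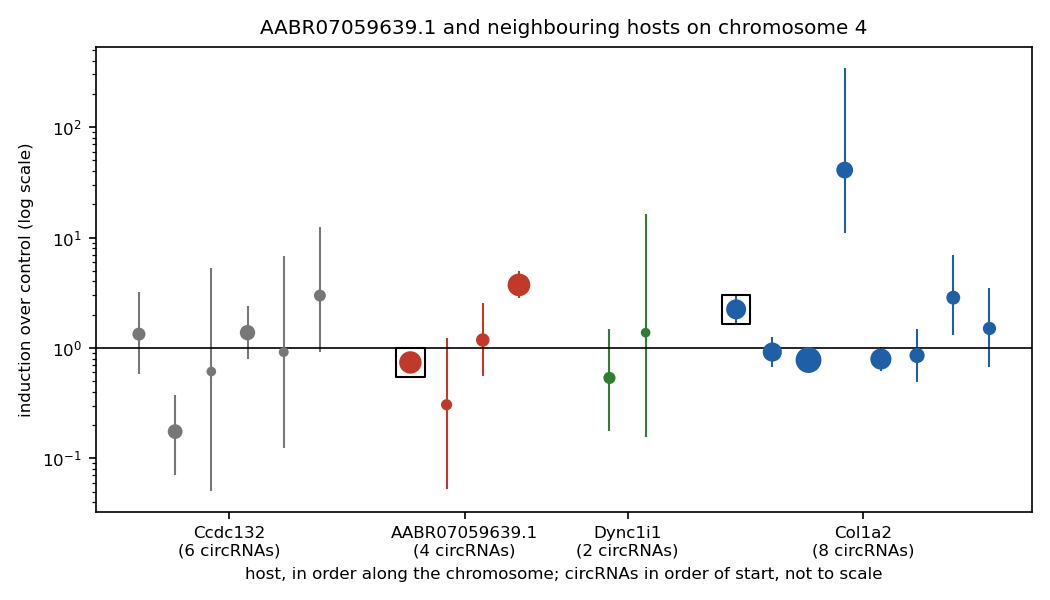
Ratio of induction to control (log scale, with exact 95% intervals) for each circRNA of AABR07059639.1, the flanking hosts Ccdc132 and Dync1i1, and Col1a2, in order along chromosome 4, with larger points for higher counts. Squares mark the 249 nt span found in both AABR07059639.1 and Col1a2, below 1 in the former (180 and 145 counts) and above 2 in the latter (57 and 139).

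The only AABR07 name with a current symbol was AABR07073181.1, which is Hspg2 in GRCr8, the gene of the basement membrane proteoglycan perlecan. Its circRNA on chromosome 5, from 155850980 to 155851664, had 6 control and 27 induction counts, 4.13-fold higher (1.67 to 12.2). LOC100911993, without a current symbol, had its nearest circRNA 93.5 kb to the right, and both loci lay between the hosts Cdc42 and Ece1. One of its 3 circRNAs was also called, from 155966533 to 155971111 with 2 and 11 counts, 5.05-fold higher (1.10 to 46.8). The other two, which shared the start 155945201, had 2 and 2 counts and 7 and 3.

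AABR07062513.1, on chromosome 4 between Bcat1 and Fgfr1op2, had 2 circRNAs. That from 180721313 to 180722357 had 14 control and 36 induction counts, 2.36-fold higher (1.24 to 4.73), and the other had 6 and 10. With both added up the locus stayed past 2-fold, at 2.11. On chromosome 8, AABR07069473.1 and AABR07071661.1 had 3 circRNAs each and no call. In AABR07069473.1 all 3 began at 23508992, with 5 and 9, 12 and 13, and 48 and 46 counts, higher with a longer span in both columns. In AABR07071661.1 all 3 ended at 126390804, with 11 and 11, 6 and 3, and 18 and 14 counts.

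2 further abundant circRNAs of AABR07 loci stayed under 2-fold. AABR07060133.1, on chromosome 4 from 58469325 to 58485447, gave 96 control and 94 induction counts, a ratio of 0.898 (0.669 to 1.21). AABR07072602.1, on chromosome 18 from 53252673 to 53266566 and 133 kb from the fibrillin gene Fbn2, had 82 and 55 counts, 1.63-fold lower (1.14 to 2.33).

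Among the 34 circRNAs of LOC loci outside 7SL, 4 were called higher and 3 lower, together 20.6% against 18.5% of all listed. LOC102549817, now the zinc finger gene Znf431l4, had the largest ratio of the 104. Its circRNA on chromosome 7, from 9826042 to 9826424, had 3 control and 26 induction counts, 7.95-fold higher (2.44 to 41.0). Zinc finger genes of this kind form a large family with similar members, so reads may be shared with paralogs, and this was not tested.

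LOC361635 is Vps35l, a subunit of the retriever complex that returns membrane proteins from endosomes to the cell surface. Its 4 circRNAs on chromosome 1 differed in direction. That from 188510274 to 188516444 had 5 control and 23 induction counts, 4.22-fold higher (1.57 to 14.2). That from 188488054 to 188494331 had 13 and 2, 7.09-fold lower (1.60 to 64.7). Of the 19 loci with 2 or more circRNAs, it was the only one with a call in each direction. How often this occurs among other hosts was not computed. The remaining circRNAs had 9 and 21 counts and 8 and 7, and the sums of 35 and 53 gave a ratio of 1.39 (0.890 to 2.19).

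LOC100909609, on chromosome 1 from 206956299 to 207111018, had 6 circRNAs, the most of any of these loci after 7SL. It had no current symbol and lay between circRNAs of Adam12, 805 kb to the left, and of Glrx3, 2681 kb to the right. The 6 had 75 and 63, 26 and 18, 8 and 5, 7 and 5, 7 and 4, and 3 and 2 counts. Every one was lower in induction by its ratio and none was called. The sums of 126 and 97 gave a ratio of 0.706 (0.536 to 0.928).

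In LOC100910483, on chromosome 9 between Ankrd12 and Wash1, 3 of 4 circRNAs ended at 113846055. The one that began at 113824488 had 4 control and 17 induction counts, 3.90-fold higher (1.27 to 15.9). The most counted of the locus, from 113814772 to that same end, had 57 and 55. The others had 5 and 4 counts and 4 and 4.

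Called lower were LOC100362999 and LOC680039. LOC100362999 is St13-ps2, a pseudogene of the Hsp70 cochaperone St13, and its circRNA on chromosome 6, from 59301040 to 59301308, had 72 control and 32 induction counts, 2.45-fold lower (1.60 to 3.84). A pseudogene resembles its parent gene, and whether reads of St13 were counted there was not tested. LOC680039 is Kiaa0232, whose circRNA on chromosome 14, from 79281829 to 79296044, gave 19 control and 8 induction counts, 2.59-fold lower (1.08 to 6.84). LOC294154 is Ilrun, a regulator of inflammation and lipid metabolism. Its circRNA on chromosome 20, from 7363740 to 7372069, gave 102 control and 79 induction counts, 1.41-fold lower (1.04 to 1.91) and not called.

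Among the 29 circRNAs of RGD loci, 3 were called higher and 2 lower, together 17.2% against 18.5% of all listed. RGD1307100 is Bltp1, a bridge-like lipid transfer protein, and its single circRNA on chromosome 2, from 123597469 to 123600232, had 6 control and 45 induction counts, 6.88-fold higher (2.93 to 19.7). RGD1565616 is Dnaaf9, which takes part in the assembly of the dynein arms of motile cilia. Its circRNA on chromosome 3, from 123299120 to 123308032, gave 53 control and 131 induction counts, 2.27-fold higher (1.64 to 3.18). The other 3 of Dnaaf9 had 14 and 18, 8 and 11, and 2 and 3 counts, all with ratios above 1 and no call, and the sums of 77 and 163 gave 1.94 (1.47 to 2.58).

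RGD1565775 is Khdc4, an RNA-binding protein with KH domains linked to pre-mRNA splicing. From 1 start on chromosome 2, 188055409, it had 2 circRNAs. The shorter, to 188056256, had 147 control and 177 induction counts, a ratio of 1.10 (0.883 to 1.38). The longer, to 188059148, had 19 and 44, 2.12-fold higher (1.21 to 3.85). With the totals of the listed counts as the divisor, its log2 ratio moved from 1.09 to 0.95, just under 2-fold.

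RGD1310951 (Kiaa1958) had 11 control and 2 induction counts on chromosome 5, from 76925720 to 76926914, a ratio of 0.167 (0.0180 to 0.764). RGD1563680 is Cdin1, the partner of codanin-1, and mutations in the human gene cause congenital dyserythropoietic anaemia. Its circRNA on chromosome 3, from 107229486 to 107246956, gave 20 control and 7 induction counts, 3.11-fold lower (1.27 to 8.72), and the second, from the same start, had 5 and 2. RGD1562608 (Kiaa1328), with 3 circRNAs on chromosome 18, had 17 and 11, 5 and 7, and 12 and 22 counts and no call.

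**Figure D4:**
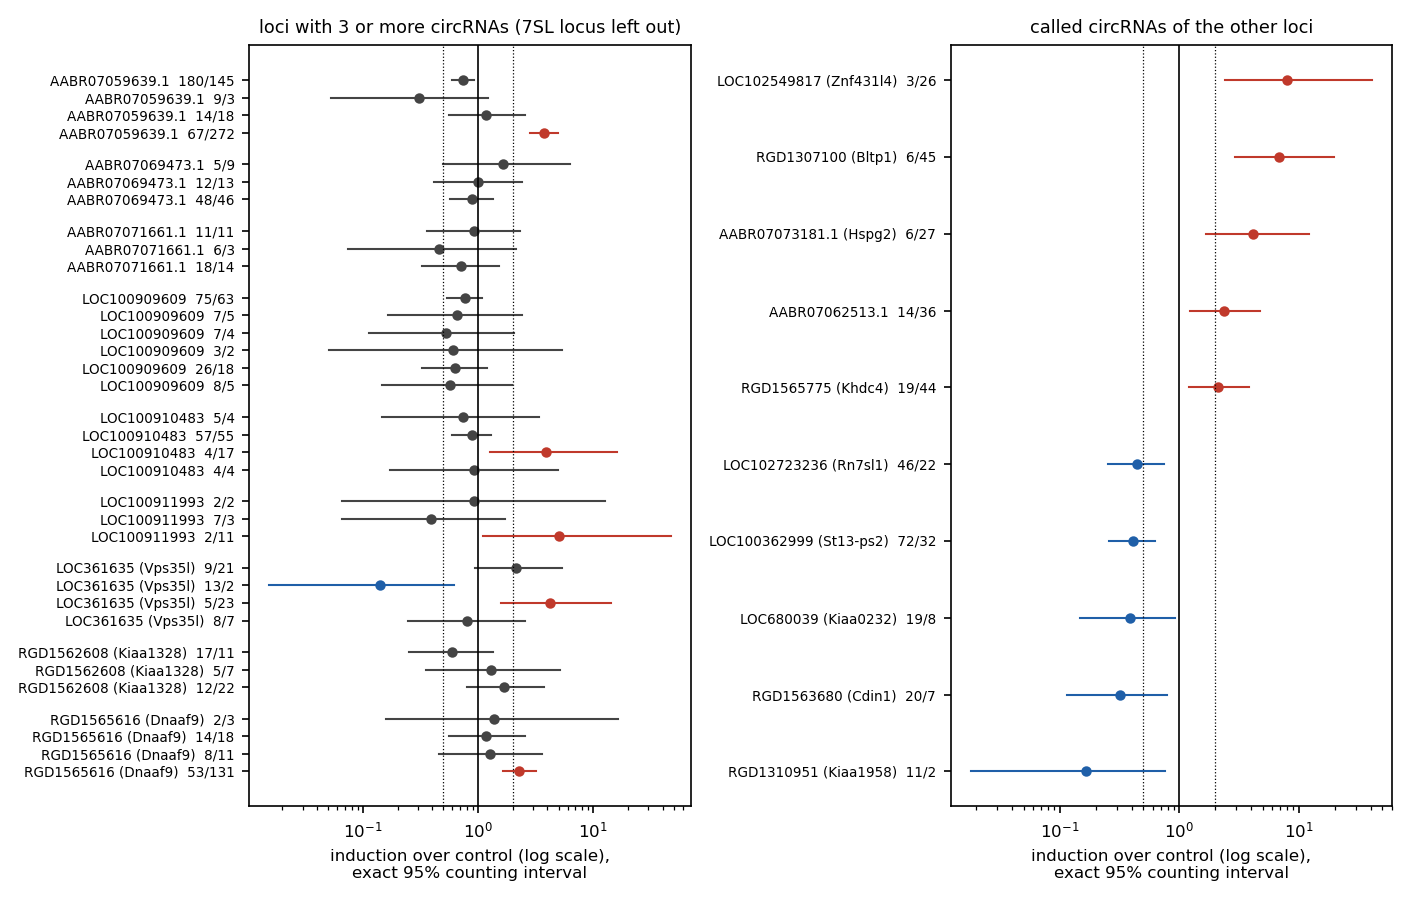
Ratio of induction to control on log scales, with exact 95% counting intervals, for every circRNA of the loci with 3 or more outside the 7SL locus (left) and for the called circRNAs of the other loci (right). Labels give control and induction counts, dotted lines mark 2-fold, and calls are red (higher) or blue (lower). Vps35l has a call on either side of 1, and the 6 circRNAs of LOC100909609 all lie below 1 with intervals that reach past it.

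Of the 16 calls, 5 had under 5 counts in a column, and their intervals were accordingly wide. A further 8 circRNAs had intervals that excluded equal levels at under 2-fold. The share of such circRNAs over the whole table was not computed, and high counts narrow an interval so that small differences pass. The 8 were 5 of the 7SL locus, the 249 nt circRNA of AABR07059639.1, and those of AABR07072602.1 and Ilrun. The loci with a current coding symbol had 10 calls among 42 circRNAs (23.8%, 6 higher and 4 lower) and those without a symbol 4 among 43 (9.30%, all higher), on either side of the 18.5% of all listed. The difference between them was not tested. CircRNAs without a symbol also had fewer counts, with a median of 13 in both columns together against 25. Under 20 counts were found for 62.8% of them against 42.9%. Low counts make a call less likely, and the shares called at like counts were not compared. With the counts of each locus added up, 8 of 54 loci (14.8%) were called, near the 17.0% of all 2264 host entries of the table, with 4 in each direction. The higher ones were Bltp1, Znf431l4, Hspg2 and AABR07062513.1, and the lower ones St13-ps2, Kiaa0232, Kiaa1958 and Cdin1.

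The number of circRNAs per locus was close to that of named hosts. Of the 54, 35 (64.8%) had 1 circRNA, against 62.8% of 1913 other hosts, 19 had 2 or more and 10 had 3 or more. The 2 sides were counted by unlike rules. Other hosts kept rows that also held names recurring over the genome. The 54 loci lost every row with a name of another form, and 3 such rows named 2 of them. Of the 104 circRNAs, 55 in 16 loci shared a back-splice end with another of them. A shared end with any circRNA of the table was found for 53.8%, or 46.0% without the 7SL locus, against 44.1% of the others. In 3 of the 19 loci with 2 or more circRNAs, at least 1 pair had ratios whose 95% intervals did not overlap. These were AABR07059639.1, Vps35l and the 7SL locus. The share among other hosts was not computed, and more circRNAs or more counts in a locus make such a pair likelier.

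The median span between back-splice ends was 5254.5 nt (2764 to 7596, exact binomial interval of the median), against 5670 nt (5259 to 6039) for all other circRNAs. Without the 7SL locus it was 6171 nt. The extremes differed more than the middle. Spans under 200 nt made up 15.4% of the 104 (16 circRNAs, 12 of them 7SL), against 4.38% of the others. Spans of 50 kb or more made up 12.5% (13 circRNAs, 5 of them 7SL), against 6.64%. Outside 7SL the span ran from 80 nt in AABR07052758.1 to 131940 nt in LOC100910568. By form of name, the median was 5178 nt for AABR07, 6699.5 nt for LOC without 7SL and 5603 nt for RGD. The 419 circRNAs whose names all occur over the genome, mostly small RNA families, had a median of 16093 nt.

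**Figure D5:**
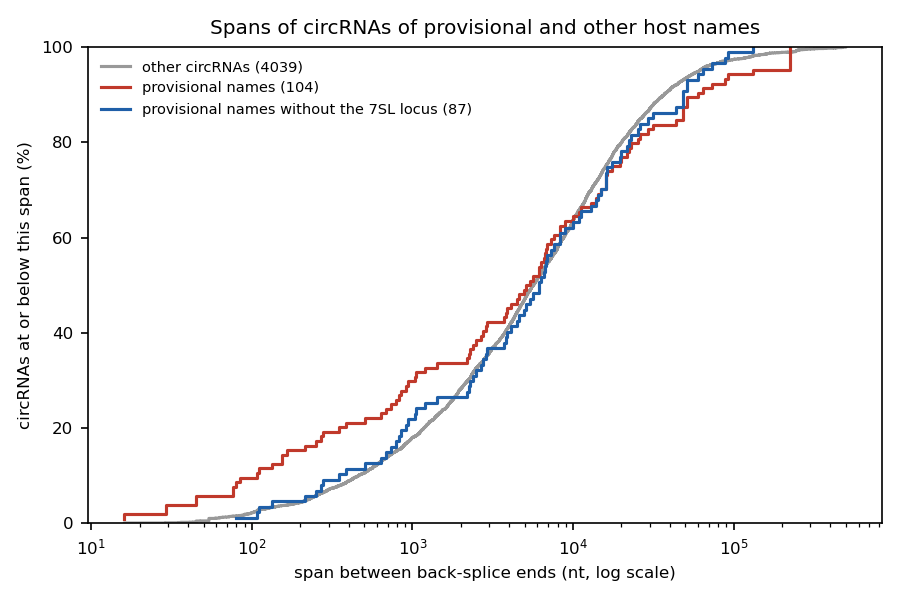
Cumulative share of circRNAs (%) by the span between their back-splice ends (nt, log scale) for the 104 circRNAs of provisional names, the 87 outside the 7SL locus and the 4039 others. The red line departs from the grey one under 200 nt and over 50 kb, and the blue line without 7SL follows the grey one more closely.

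No circRNA of a provisional name overlapped a circRNA of a single named host, nor the stretch covered by such a host's circRNAs. Among the 3590 circRNAs of single named hosts, none overlapped a circRNA of another such host. Rows that named a provisional locus together with a named host were left out by the rule. The choice of rows thus works against an overlap, and nothing is concluded from its absence. The nearest circRNA of a single named host was at a median of 281 kb, from 10.2 kb to 3167 kb. Distances run to listed circRNAs and not to gene ends, so a gene itself may lie closer. Within 100 kb of such a circRNA lay 10 circRNAs of 8 loci, and 17 circRNAs were over 1 Mb from any. The closest was LOC361985, now Ns5atp4, on chromosome 2, with 32 and 33 counts. It lay 10.2 kb from a circRNA of the ubiquitin-associated gene Ubap2l and 23.4 kb from one of the tropomyosin gene Tpm3.

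An overlap with any row that held a name of another form was found for 7 circRNAs of 5 loci. For 5 of them these rows carried only small RNA names that recur over the genome. The other 2 were Kiaa1328 circRNAs, which overlapped a row with small RNA names and RGD1562608 itself. A back-splice end was shared with such a row by 3 circRNAs. That of AABR07000411.1, on chromosome 1 from 12128638 with 3 and 3 counts, shared its start with a row of 7 and 12 counts. The 96 and 94 count circRNA of AABR07060133.1 shared its start with a row of 6 and 3. The Kiaa1328 circRNA from 17496797 shared its start with a row of 3 and 2.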

How the data were processed

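CircRNAs were counted by the authors from RNA of 3 control and 3 induction samples, after removal of DNA and linear RNA per the labels' protocols. Per the submitters' processing notes, reads were processed with FastQC and BWA on Rnor_6.0. The circRNA caller was not given in the sources used here, nor was how each group's libraries became 1 column. Per the file headers, the deposited values are a count, a TPM, a log2 ratio, a p-value and an FDR per circRNA. The deposited TPM equalled the count divided by a column total and multiplied by 1000000, with no length term. The deposited log2 ratio was that of induction over control TPM. The authors' p-value compares reads of 2 columns and is used only through the FDR.

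Ratios and exact intervals were computed with Python 3.11.15 and scipy 1.17.1 over all 4143 circRNAs and tested on simulated counts. The simulated counts held counting error only, so spread between rats and duplicate reads were not part of that check. The planned edgeR test needs 1 column per sample and was not run. edgeR 4.0.16 TMM, DESeq2 1.42.0 size factors and the other settings of the closing section served as alternatives. The members, lists and rules were chosen with earlier results of these data known. Named were the 10 most counted members, every call, every locus of 3 or more, members sharing an end with another host's circRNA, and the 5 longest and shortest spans. Other members were named after their values were seen. RefSeq of GRCr8 gave names and gene order only. Host names found on several chromosomes, or across over 5 Mb of 1, count as recurring over the genome, and 6 rows had no name.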

Additional observations from a re-analysis of the deposited data

How the results depend on the processing

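No paired analysis was possible because the counts came as 1 column per group, and no replicate could be left out for the same reason. The count of 16 calls among 104 circRNAs (15.4%, 18.5% of all listed) became 7 at a 4-fold limit (6.73%, 8.93% of all) and 5 with an assumed coefficient of variation of 40% per column (4.81%, 7.22% of all). It was 8 with sums over each of the 54 loci (14.8%, 17.0% of all) and 4 of 43 without loci that have a current symbol (9.30%, 18.5% of all). Each of these changes the rule or the number tested. With at least 20 counts in both columns together it was 13 of 58 (22.4%, 30.2% of all), and under the other scalings, filter and name rules and the authors' FDR it lay between 14 and 21. The ratio of all counts, 1.04, was 0.945 on the totals of the listed counts, 1.08 with DESeq2 size factors and 1.11 without LOC102723236. The ratio of LOC102723236 was 0.931 on listed totals and 1.06 with DESeq2 size factors. The median log2 ratio, -0.12, was -0.26 on listed totals, a scaling that moves every log2 ratio by -0.13, and was above 0 with at least 20 counts (0.06) and with any provisional name (0.02). Of the 16 calls, 16 held with TMM and with DESeq2 size factors, 15 with listed totals and 5 with the 40% variation. The 7 overlaps with rows of other names became 4 where 1 interval had to contain the other, 3 for a shared end, 0 against the stretch of a named host, 0 against rows with 1 remaining name and 21 within 100000 nt of any such row. The settings without LOC102723236, the rows with 1 remaining name, the scalings of LOC102723236 and the checks of single calls were chosen after seeing the data. Low counts limited single circRNAs: 46 of 104 had under 20 counts in both columns together.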

Other observations

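Values of some other circRNAs with a current gene name, chosen after their values were seen, are given with control counts before induction counts. Katnip, the partner of the microtubule-severing katanin, had 4 and 2 counts. Cplane1, a protein of the ciliary base, had 8 and 6, and Iftap, a partner of the intraflagellar transport machinery, had 11 and 13 over its 2 circRNAs. The centrosomal Kiaa0586 had 3 and 6, and the kinesin-like Stard9 had 7 and 16. The 2 circRNAs of the Golgi protein Armh3, which share an end on chromosome 1, had 8 and 12 counts and 9 and 16. None of these was called.

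C2h5orf34 had 8 and 20 counts, a ratio of 2.29 (0.968 to 6.02), and was not called because its interval included equal levels. Brd10, a bromodomain gene, had 40 and 28 counts in its shorter circRNA and 12 and 13 in its longer one, from the same start. C10h17orf75 had 40 and 37 counts.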
